A study of Rattus norvegicus with 4 samples.

Results

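Genes of translation initiation and elongation factors were examined in the PC12 line, which was grown from a rat pheochromocytoma, a tumour of chromaffin cells. The members are the genes whose symbol starts with Eif or Eef followed by a digit and whose RefSeq accession is that of a probe other than a control on the array: 35 genes with 54 probes, of 8899 named genes and 41012 probes in all. They were chosen by name and not by their values. The rat annotation holds 75 protein-coding genes of this kind, and the other 40 had no probe named by accession and were not analysed here. PC12 cells are known to lack a working MAX, the protein that pairs with MYC to bind DNA. Total RNA came from a PC12 line nucleofected with an empty vector and from a PC12 line nucleofected with a plasmid coding for MAX, both after drug selection (the agent is given as E418 in the labels). Each group is 1 transfected line at passages 8 and 13, hybridised to 2 one-colour (Cy3) Agilent arrays, so its p-values measure the spread between samples of that line and not between transfections.

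Protein synthesis begins when eIF2 brings the initiator tRNA to the small ribosomal subunit, eIF3 and the scanning factors assemble with it, and the eIF4 proteins load it onto the cap of an mRNA. eIF2B recharges eIF2 with GTP, and stress kinases that phosphorylate eIF2 block that step. eIF4E-binding proteins hold eIF4E away from the cap complex until mTOR phosphorylates them. In elongation, eEF1 delivers aminoacyl-tRNA and eEF2 moves the ribosome along. MYC is known to drive ribosome production and several of these factors, Eif4e among them, through E-box sequences that it binds with MAX.

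Because MAX pairs with MYC at the sequence CACGTG, the canonical E-box (the same on both strands), the RefSeq promoter windows of assembly GRCr8 were searched from 250 bases before to 50 after each start. Windows were given for 30 of the 35 genes. The E-box stood in 7 of the 30 (23.3%), against 9.34% of 5149 named genes tested and 7.08% of 27457 genes in the table. With 30 genes this is a description of letters, not of binding. Counted from the first base of the motif, Eif4e has 2 copies, 237 and 80 bases before the start. Eef2k and Eef2 have 1 each at 77 and 76 bases, Eif3b at 57, Eif4h at 168 and Eif5a at 206 bases before the start, and Eif3a has its copy 30 bases after it. The stretches that hold the upstream copies are shown because they hold the letters that MYC and MAX are known to bind, with the E-box in capitals, read in the direction of the gene. They lie at chr2:229740503-229740698 (Eif4e, plus strand), chr7:9189289-9189334 (Eef2, minus strand), chr1:184824323-184824368 (Eef2k, plus strand), chr12:19334800-19334845 (Eif3b, minus strand), chr12:27719504-27719549 (Eif4h, plus strand) and chr10:55143402-55143447 (Eif5a, minus strand).
Eif4e: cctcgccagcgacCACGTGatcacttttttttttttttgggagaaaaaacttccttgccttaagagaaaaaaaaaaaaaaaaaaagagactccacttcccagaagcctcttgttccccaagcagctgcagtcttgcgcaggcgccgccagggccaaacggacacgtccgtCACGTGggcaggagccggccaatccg
Eef2: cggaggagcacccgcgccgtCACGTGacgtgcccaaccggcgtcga
Eef2k: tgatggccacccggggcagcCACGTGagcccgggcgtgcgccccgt
Eif3b: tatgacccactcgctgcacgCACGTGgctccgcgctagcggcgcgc
Eif4h: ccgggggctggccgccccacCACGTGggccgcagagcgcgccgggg
Eif5a: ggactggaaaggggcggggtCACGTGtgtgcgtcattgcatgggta

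No translation factor gene passed the test for a difference between MAX and empty vector cells. Of the 35 genes, 34 were well above background on all 4 arrays and were tested. In limma 0 of them passed an adjusted p of 0.05, against 0.84% of the 25355 genes tested, and 0 had an unadjusted p under 0.05, against 16.1%. Of the 25355, 6316 have a symbol, as all members do, and the rest stand under the array's own identifier. Shares of all genes include both kinds. By direction, 0.576% of all genes passed higher and 0.264% lower, and 7.93% and 8.21% had an unadjusted p under 0.05. With normexp, another background correction, 0 members passed in limma, against 3.15% of all genes (1.69% higher and 1.46% lower). In that fit 0 members had an unadjusted p under 0.05, against 12.9% of all genes. With the deposited background correction, the members' log2 fold changes lay between -0.27 and 0.29, that is, from 1.21-fold lower (Eif4ebp1) to 1.22-fold higher (Eif2b4), and 70.9% of all genes tested lay in the same range. The median was 0.01 with 19 positive and 15 negative values, beside a median of -0.02 over all genes. The median size of the log2 fold change was 0.07, against 0.16 over all genes. Each of the 34 intervals at 95% held 0, and each lay within a 2-fold change in either direction. The widest reach was 1.48-fold lower for Eif4ebp1 and 1.52-fold higher for Eif2b4. These intervals are not adjusted for the number of genes, and the number of arrays limits the precision.

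**Figure D1:**
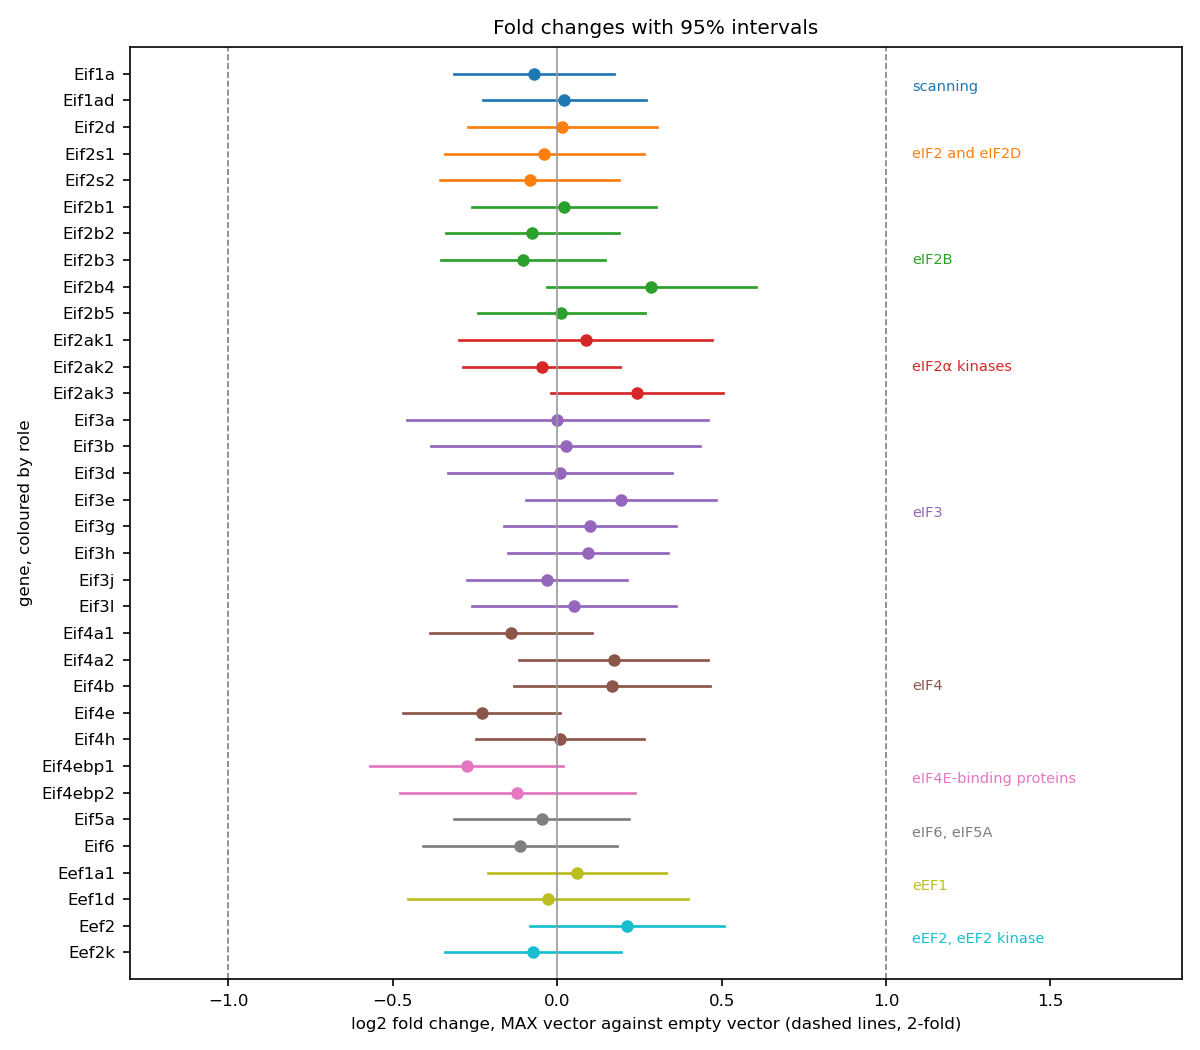
Log2 fold change of each of the 34 tested genes, MAX vector against empty vector, with its 95% interval from limma (n = 2 arrays per group); colours mark roles, and dashed lines mark a 2-fold change. The points lie between -0.27 and 0.29, each interval crosses 0, and no interval reaches a dashed line.

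The arrays set the frame for these values. The share of probes well above background ran from 64.4% to 71.5% over the arrays, with 0 saturated spots. Slide 1 held 3 of the arrays, and MAX vector replicate 1 was alone on slide 2. The Max gene has a single probe, which stayed in the background on every array (0 of 4 above), and its place relative to the plasmid was not analysed here, so the label of each group is not checked by it. Of 8 chromaffin markers, 7 had a probe, and 5 of these (Th, Ddc, Phox2a, Chga and Chgb) were well above background on all 4 arrays. A second Chga probe was so on no array (count 0). The chromaffin list, summed in multiples of each array's 75th percentile, had 17.95 and 18.07 in empty vector cells against 9.739 and 9.675 in MAX cells. Such a sum follows its brightest probe, here that of Ddc (log2 signals of 4.03 and 4.04 against 2.96 and 2.94), while Th lay the other way (-1.94 and -2.10 against 0.17 and 0.08). Phox2a was lower in MAX cells (0.22 and 0.35 against -0.49 and -0.41), as was the dim Slc18a1 (-4.9 and -5.8 against -6.5 and -5.9). For Chga, Chgb and Dbh the groups overlapped. All 4 fibroblast markers with a probe were also above background throughout, with sums of 127.5 and 141 against 135.2 and 144.5 that follow Col3a1 (log2 signals of 6.98 and 7.12 against 7.07 and 7.16). Of its dimmer members, Lum was lower in MAX cells (0.37 and 0.72 against -0.96 and -0.33) and Dcn higher (-4.83 and -5.08 against -4.26 and -4.15). Col1a2 was slightly lower in MAX cells (-1.73 and -1.81 against -1.91 and -1.95), also on its second probe. The Schwann or glial list (2 of 5 on all arrays) summed to 0.497 and 0.564 against 0.441 and 0.555, and the macrophage or blood list (3 of 4) to 0.626 and 0.713 against 0.686 and 1.17. S100b and Hbb were well above background on no array (count 0). The part of these markers in the results was not tested.

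Levels are given below as log2 signal relative to the array's 75th percentile over probes. They compare the mRNA of a gene between arrays, not the amounts of different genes. Bright and dim describe a probe's signal only. Errors are SE of the log2 fold change (n = 2 arrays per group). The groups of 16 tested genes did not overlap, 8 higher and 8 lower with MAX, beside 50.2% of all genes tested (24.2% higher and 26% lower). The members' share was thus near that of all genes.

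**Figure D2:**
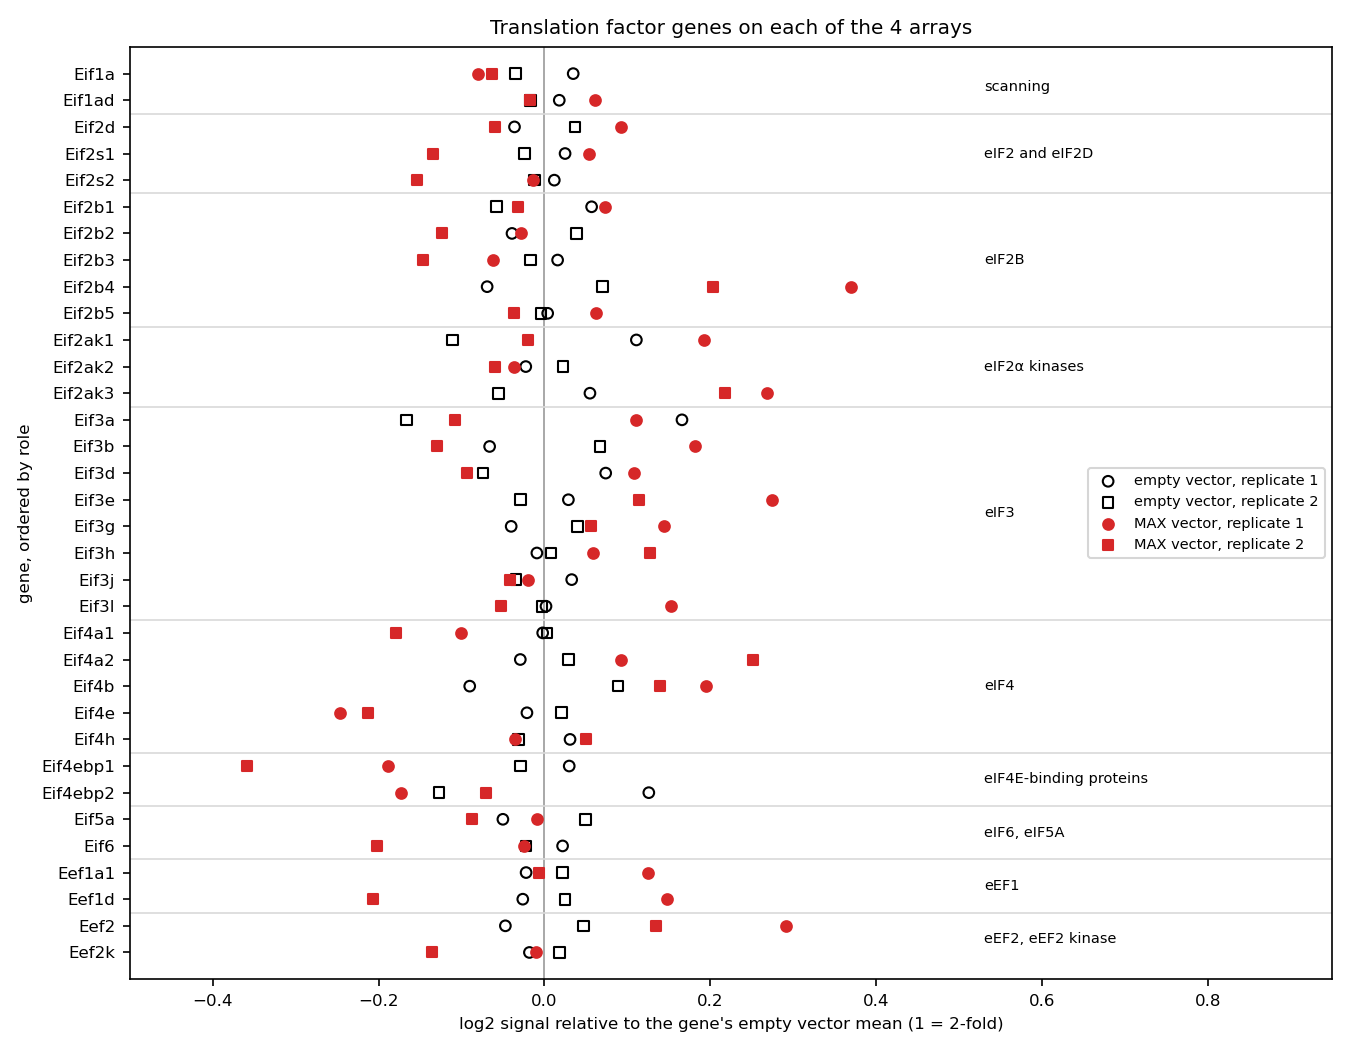
Log2 signal of each tested gene on each of the 4 arrays, relative to that gene's empty vector mean, ordered by role; open symbols are empty vector arrays and filled symbols MAX vector arrays, with circles for replicate 1 and squares for replicate 2. In 16 of 34 genes both filled symbols lie on the same side of both open ones, and in the other 18 the groups overlap.

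Of 7 listed genes of eIF2 and initiator tRNA delivery, 3 were measured (Eif2s1, Eif2s2 and Eif2d), with log2 fold changes from -0.08 to 0.02. Eif2s2, which encodes the beta subunit, had log2 signals of 6.23 and 6.21 in empty vector cells against 6.21 and 6.07 in MAX cells. Both MAX values lay below the empty vector values, but the nearest ones were 0.0022 apart, and the log2 fold change was -0.08 ± 0.10 (adjusted p = 0.711 in limma). Its other probes gave -0.12 and -0.01. Eif2s1, which encodes the alpha subunit that the stress kinases phosphorylate, had -0.04 ± 0.11, and Eif2d, whose product can deliver initiator tRNA without GTP, had 0.02 ± 0.10. The groups overlapped for both.

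Among the 5 subunit genes of eIF2B, which together encode the whole exchange factor, Eif2b4 stood highest. This delta subunit gene had log2 signals of 1.10 and 1.24 in empty vector cells against 1.54 and 1.37 in MAX cells. Both MAX arrays lay above both empty vector arrays, by 0.13 at the nearest, and the log2 fold change was 0.29 ± 0.11 (adjusted p = 0.345 in limma). The other subunit genes did not share it: Eif2b1 (alpha) had 0.02 ± 0.10, Eif2b2 (beta) -0.08 ± 0.09, Eif2b3 (gamma) -0.10 ± 0.09 and the catalytic Eif2b5 (epsilon) 0.01 ± 0.09. Of these 4, the groups stood apart only for Eif2b3, lower with MAX, and its second probe gave 0.00 with overlapping groups. Whether Eif2b4 differs from its partners was not tested.

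Of the 4 kinases that phosphorylate eIF2 alpha, 3 were measured. Eif2ak3, which encodes PERK, the kinase of endoplasmic reticulum stress, had log2 signals of -3.85 and -3.96 in empty vector cells against -3.63 and -3.68 in MAX cells. It was the dimmest member tested. Both MAX values were higher, with a log2 fold change of 0.24 ± 0.09 (adjusted p = 0.336 in limma). Under the normexp correction its value was 0.09. Eif2ak1, the heme-regulated kinase gene, had 0.09 ± 0.14, and Eif2ak2, which encodes the RNA-activated kinase PKR, had -0.05 ± 0.09 with MAX arrays lower by 0.014 at the nearest. The second Eif2ak2 probe gave 0.04 with overlapping groups.

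Of 7 genes listed with the scanning factors, 2 were measured, Eif1a and Eif1ad. Eif1a, whose product helps the small subunit find the start codon, had log2 signals of 0.97 and 0.90 in empty vector cells against 0.85 and 0.87 in MAX cells. The groups were 0.028 apart, and the log2 fold change was -0.07 ± 0.09 (adjusted p = 0.726 in limma). Eif1ad, a gene named for its eIF1A-like domain, had 0.02 ± 0.09 with overlapping groups.

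eIF3 is the largest initiation factor and forms the platform on which the small subunit and the mRNA meet. Of its 13 listed subunit genes 8 were measured, 7 with a positive and 1 with a negative log2 fold change, between -0.03 (Eif3j) and 0.19 (Eif3e) with a median of 0.04. Eif3e had log2 signals of 1.95 and 1.89 in empty vector cells against 2.19 and 2.03 in MAX cells, which gave 0.19 ± 0.10 (adjusted p = 0.449 in limma). Eif3g, an RNA-binding subunit gene, had 3.35 and 3.43 against 3.53 and 3.44, a log2 fold change of 0.10 ± 0.09. Eif3h had 1.24 and 1.26 against 1.31 and 1.38, a log2 fold change of 0.09 ± 0.09. In these 3 genes both MAX arrays lay above both empty vector arrays. For the core subunit genes Eif3a (0.00 ± 0.16) and Eif3b (0.03 ± 0.15), and for Eif3d (0.01 ± 0.12), Eif3l (0.05 ± 0.11) and Eif3j (-0.03 ± 0.09), the groups overlapped. Eif3a had the largest SE of the 34 genes, at 4.40 and 4.07 in empty vector cells against 4.34 and 4.13 in MAX cells. On the 3 arrays of slide 1, 3 of the 8 were positive and 5 negative: Eif3e had 0.11, Eif3g 0.06 and Eif3h 0.13, while Eif3a had -0.11, Eif3b -0.13, Eif3d -0.09, Eif3l -0.05 and Eif3j -0.04.

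The eIF4 genes lay on both sides of 0. Eif4e, which encodes the cap-binding protein, had log2 signals of 3.80 and 3.84 in empty vector cells against 3.57 and 3.61 in MAX cells. The replicates lay close together, the groups were 0.19 apart, and the log2 fold change was -0.23 ± 0.09 (1.17-fold lower, adjusted p = 0.324 in limma). Its second probe read 1.42 and 1.36 against 1.28 and 1.20, a difference of -0.15 in the same direction. On slide 1 alone the value of the brighter probe was -0.21. Eif4e has annotated pseudogenes, whose transcripts these probes may not tell apart from its own.

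Eif4b, which encodes an RNA-binding partner of the eIF4A helicase, was higher on both MAX arrays with all 4 of its probes. The brightest had log2 signals of 3.68 and 3.86 in empty vector cells against 3.96 and 3.91 in MAX cells, a log2 fold change of 0.17 ± 0.11 (adjusted p = 0.514 in limma). A further Eif4b probe was printed as 10 spots on the array, so its reading error is known within each array. Its mean was 2.34 (SD 0.05 over 10 spots) and 2.40 (SD 0.06 over 8 usable spots) in empty vector cells, and 2.72 (SD 0.06 over 10) and 2.63 (SD 0.04 over 9) in MAX cells. The lowest MAX spot, at 2.58, lay above the highest empty vector spot, at 2.49. The difference was 0.30, the largest of the 53 member probes tested in size, with an unadjusted p of 0.0295 and an adjusted p of 0.25 when each of 28563 probes was tested on its own in limma. Of the 53, this was the 1 probe with an unadjusted p under 0.05, and 0 passed, against 16.3% and 0.959% of all probes. Spots of the same probe share an RNA sample, so they show reading error only. The last probes gave 0.14 and 0.17. The agreement of the 4 probes is a description, since the gene did not pass.

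The eIF4A helicase genes pointed in opposite ways by the probes used. Eif4a1 had 6.80 and 6.80 in empty vector cells against 6.70 and 6.62 in MAX cells (-0.14 ± 0.09), and Eif4a2 had 5.14 and 5.20 against 5.26 and 5.42 (0.17 ± 0.10). Neither passed (adjusted p = 0.509 and 0.49 in limma). The 5 probes of Eif4a1 did not give 1 answer: the others had -0.03, 0.02, 0.04 and 0.17. The brightest put both MAX arrays below the empty vector arrays, and the dimmest, at 1.28 and 1.28 against 1.499 and 1.39, put both above. Eif4a1 and Eif4a2 are close paralogs, and Eif4a1 has annotated pseudogenes, so which transcript each probe read is uncertain. Eif4h, whose product stimulates the helicase, had 0.01 ± 0.09 with overlapping groups.

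Of the 4 listed genes of eIF4E-binding proteins, inhibitors of eIF4E, 2 were measured, and both had negative values. Eif4ebp1 had log2 signals of 6.46 and 6.40 in empty vector cells against 6.24 and 6.07 in MAX cells. Both MAX arrays lay below, by 0.16 at the nearest, and the log2 fold change was -0.27 ± 0.11 (1.21-fold lower, adjusted p = 0.332 in limma). Its second probe read 5.10 and 5.06 against 5.03 and 4.86, a difference of -0.14. On slide 1 alone the value was -0.36, with an unadjusted p of 0.043 and an adjusted p of 0.311 in limma. Without MAX vector replicate 2 it was -0.19. Eif4ebp2 had 1.94 and 1.69 against 1.64 and 1.74, a log2 fold change of -0.12 ± 0.13 with overlapping groups, and 0.01 without empty vector replicate 1.

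Eif6, which encodes a factor that keeps the large ribosomal subunit from joining too early, had log2 signals of 4.59 and 4.55 in empty vector cells against 4.54 and 4.37 in MAX cells. The groups were 0.0029 apart and the log2 fold change was -0.11 ± 0.11 (adjusted p = 0.645 in limma). Eif5a encodes the factor that carries hypusine, an amino acid made from the polyamine spermidine, and helps ribosomes through stalls. It had -0.05 ± 0.09 with overlapping groups.

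Of the eEF1 genes, Eef1a1, which encodes the main carrier of aminoacyl-tRNA, had log2 signals of 6.95 and 6.99 in empty vector cells against 7.09 and 6.96 in MAX cells. The groups overlapped, with a log2 fold change of 0.06 ± 0.10 (adjusted p = 0.795 in limma). This gene has annotated pseudogenes, whose transcripts a probe may not tell apart. Eef1d, a gene of the exchange factor that recharges eEF1A, had 6.64 and 6.69 against 6.82 and 6.46 (-0.03 ± 0.15). Its MAX replicates lay on either side of the empty vector ones. Eef1a2, the isoform of neurons and muscle, was the 1 member not tested. It was well above background on 1 empty vector array and on neither MAX array, with log2 signals of -6.36 and -6.18 against -6.62 and -6.22.

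Eef2, which encodes the translocation factor, had log2 signals of 6.46 and 6.56 in empty vector cells against 6.80 and 6.64 in MAX cells. Both MAX arrays were higher, by 0.088 at the nearest, and the log2 fold change was 0.21 ± 0.11 (1.16-fold higher, adjusted p = 0.424 in limma). Slide 1 alone gave 0.14. Eef2k, the gene of the kinase that phosphorylates and halts eEF2, had 3.50 and 3.54 against 3.51 and 3.38, a log2 fold change of -0.07 ± 0.10 with overlapping groups. Its second probe gave -0.12.

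The probes of the same gene were set side by side. Of 13 genes with more than 1 probe, 11 had the same sign on every probe, and Eif4a1 and Eif2ak2 did not. Among the 11, Eif3a (0.0007), Eif2b3 (-0.0019), Eif2d (0.0061) and Eif3d (0.0074) had a probe close to 0, where the sign says little. The probes of a gene differed by 0.31 at most on the log2 scale. Every probe put both MAX arrays on the same side of both empty vector arrays in 3 genes, higher for Eif4b and lower for Eif4e and Eif4ebp1. Of all genes tested, 50.2% had groups that did not overlap on the probe used. Neither the share over every probe of a gene nor the share with the same sign was computed for all genes. The 3 and the 11 are thus a description. Probes of a gene share the same RNA samples and do not add replicates.

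**Figure D3:**
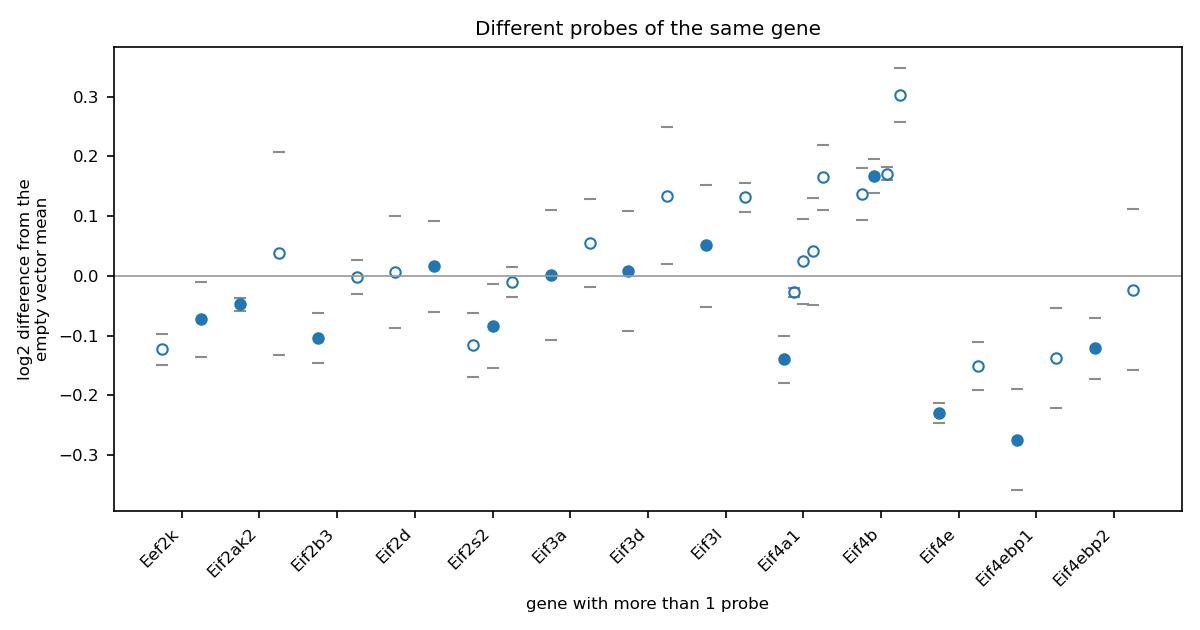
Difference of the MAX vector mean from the empty vector mean for each probe of the 13 genes with more than 1 probe (circles, log2 scale; filled, the probe used for the gene), with the 2 MAX vector arrays as short bars. All 4 probes of Eif4b lie above 0 and both probes of Eif4e and of Eif4ebp1 below it, while the 5 probes of Eif4a1 run from -0.14 to 0.17.

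The MAX replicates differed from each other by a median of 0.12 in size and the empty vector replicates by 0.06. The group means differed by a median of 0.07 in size. That is not a like measure, since each mean averages 2 arrays and so varies less than a single array. MAX vector replicate 1 lay above replicate 2 in 28 of the 34 genes (82.4%, against 47.9% of all genes tested), with a median gap of 0.10. Among the brightest 10% of all genes tested, which hold 19 of the members, the median gap was 0.08. Empty vector replicate 1 lay above replicate 2 in 18 of the 34 genes (52.9%, against 45.5% of all genes tested). Those arrays share slide 1, and their median gap was 0.0064. Slide 2, which differs from slide 1 in its barcode, holds only MAX vector replicate 1. The labels do not give its passage, so for the MAX replicates slide and passage cannot be told apart. Without it, that is, on slide 1 alone, 25 of the 34 genes were negative with a median of -0.06, and 0 passed in limma (1 had an unadjusted p below 0.05). Over all genes the median on slide 1 was 0.01, 0.0316% passed and 15.4% had an unadjusted p below 0.05. Without MAX vector replicate 2, 20 were positive with a median of 0.06, and 0 passed (0 with an unadjusted p below 0.05). Over all genes the median was then -0.03, 0.568% passed and 21.6% had an unadjusted p below 0.05.

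**Figure D4:**
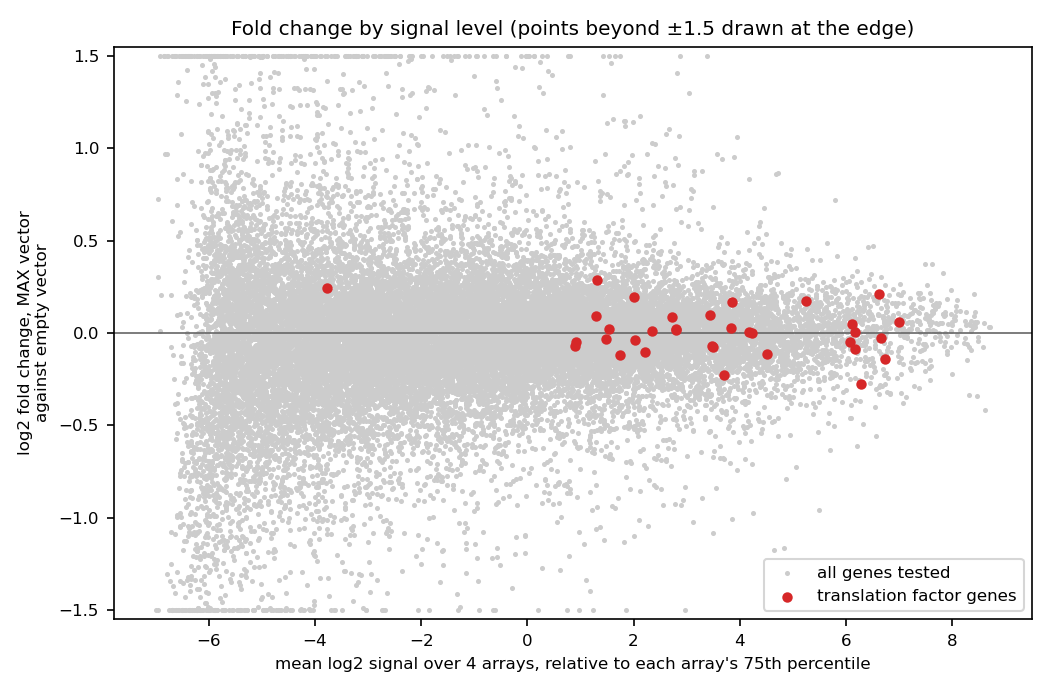
Log2 fold change of each of the 25355 genes tested (grey) and of the 34 translation factor genes (red) against mean log2 signal over the 4 arrays; the 328 genes beyond 1.5 in size are drawn at the edge. The translation factor genes lie mostly among bright genes, where the cloud is narrow, and between -0.27 and 0.29.

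The members are mostly bright, and bright genes differed little in general. Of the 34, 19 were among the brightest 10% of genes tested, of which 0.118% passed and the median size of the log2 fold change was 0.11. The 19 members had 0.08.

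The 7 genes with CACGTG in the promoter window, Eif4e and Eef2 among them, lay on both sides of 0, 4 positive and 3 negative, with log2 fold changes from -0.23 (Eif4e) to 0.21 (Eef2) and a median of 0.00. The 22 tested genes whose window lacks it had 12 positive and 10 negative values, from -0.14 to 0.29, and a median of 0.01. None of either kind passed in limma (count 0).

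Other genes of translation were taken from a list by role. Of its 72 genes 41 were tested, and 0 passed over all genes in limma (3 had an unadjusted p below 0.05, all higher, against 7.93% of all genes). The median was 0.00, with 21 positive and 20 negative values. Ddit4, which encodes an inhibitor of mTOR that stress and hypoxia induce, had log2 signals of -0.66 and -0.62 in empty vector cells against 0.27 and 0.07 in MAX cells. The groups stood clearly apart, with a log2 fold change of 0.81 ± 0.11 (1.75-fold, adjusted p = 0.09 in limma). Ddit4 passed in limma, higher, with normexp (0.64, adjusted p = 0.0125), with an intensity trend in the variance model (adjusted p = 0.0152) and with only probes well above background on all 4 arrays (adjusted p = 0.046). Of all genes, 3.15%, 3.77% and 2.26% passed in these fits, against 0.84% in the comparison itself. Ddit4 did not pass with median scaling or quantile normalization, where 2.13% and 1.16% of all genes did. On slide 1 alone it had 0.71 (adjusted p = 0.166).

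Mknk1, the gene of a kinase that phosphorylates eIF4E, had the largest value of this list, 1.24 ± 0.46 (adjusted p = 0.322 in limma), but a dim and unsteady signal of -5.15 and -4.65 against -3.09 and -4.25. With normexp it was 0.37, and on slide 1 alone 0.65. Pdcd4, which encodes an inhibitor of the eIF4A helicase, had 0.81 and 0.97 against 1.14 and 1.35 (0.35 ± 0.12, adjusted p = 0.306). Among the 15 measured genes of cytosolic aminoacyl-tRNA synthetases and their scaffold, 5 were positive and 10 negative with a median of -0.03. Qars1, the glutaminyl-tRNA synthetase gene, had 0.31 ± 0.10 (adjusted p = 0.281 in limma). The 3 lowest values of the list were all of synthetase genes. Eprs1 had 5.05 and 4.90 against 4.85 and 4.68 (-0.21 ± 0.12), and Kars1 had 3.80 and 3.85 against 3.71 and 3.61 (-0.16 ± 0.09). Nars1 had 1.75 and 1.52 against 1.39 and 1.53 (-0.17 ± 0.13), with overlapping groups. Of the poly(A) binding proteins, which join the mRNA's ends with eIF4G, and their partners, Pabpc1 had 0.07 ± 0.12 and Paip2, the gene of its inhibitor, 0.21 ± 0.09. Mtor itself had -0.06 ± 0.09 and Rps6kb1, its S6 kinase target, -0.04 ± 0.09. Atf4, whose mRNA is translated more when eIF2 is phosphorylated, had -0.08 ± 0.11. The 5 termination and recycling genes lay between -0.12 (Etf1) and 0.15 (Pelo), and the 5 mitochondrial and selenocysteine factors between -0.09 (Gfm1) and 0.10 (Secisbp2). Arrays measure mRNA, so the phosphorylation and binding steps by which most of these factors are controlled were not measured.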

How the data were processed

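The authors deposited, per the file headers, 1-colour scanner files of spot intensity written by Agilent Feature Extraction 10.7.3.1 (10.7 in the submitters' processing notes; annotation build rn4), background-subtracted and detrended within each array with no scaling across arrays. A table of log2 values was deposited too. Differences between its columns matched the scanner files (Pearson r = 1, disagreement with an SD up to 4.3e-07); the baseline taken from each probe stays unknown. Its column medians were -0.0332 and -0.0107 (empty vector) and -0.00536 and -0.00645 (MAX vector).

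Control spots and spots with an outlier flag (89 to 140 an array) were left out. Log2 signals were averaged over the spots of a probe, less the array's 75th percentile over probes. The filter kept probes well above background on 2 or more of the 4 arrays, and the brightest probe stood for a gene: 25355 genes (a gene here is a symbol or, where none matched, the array's own identifier), fitted with limma 3.58.1 in R 4.3.3 (lmFit, eBayes, no covariate; Benjamini-Hochberg over all genes, threshold 0.05). Symbols came from RefSeq accessions matched to GRCr8 tables; 10768 of 41012 probes were named. Normexp (offset 50) was run on the spots' median signals, in place of the mean signals first planned. The fit of each probe on its own was added after seeing the data. The fits were tested on simulated data. Most genes given a simulated 2-fold change did not pass, so a count of 0 passing does not by itself exclude changes of that size.

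Members, roles and lists were chosen with earlier results of these data known. Any member could be named. Values on every array are given for the member of each role with the largest difference and for others where the text turns on them; of the other translation genes, the 3 highest and 3 lowest well above background on every array, and further genes chosen after their values were seen.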

Additional observations from a re-analysis of the deposited data

How the results depend on the processing

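Under 15 alternatives in limma the count of translation factor genes that passed was 0, as in the comparison itself; leaving out each array in turn gave 0 to 0. Members at an unadjusted p under 0.05 numbered at most 4, with an intensity trend in the variance model (Eef2 and Eif2b4 higher, Eif4e and Eif4ebp1 lower), a fit in which 18.4% of all genes had one. The members' median log2 fold change, 0.0075, was -0.0595 with the slide as a block and on slide 1 only, and ran from -0.0595 (without MAX vector replicate 1, the same 3 arrays) to 0.0616 with an array left out; those arrays were all that changed, and the cause of the gap between them was not tested. Median scaling, quantile normalization and normexp gave 0.0313, 0.0197 and 0.0311. The count of other translation genes that passed, 0, was 1 with normexp, 1 with probes well above background on all 4 arrays and 1 with an intensity trend, each time Ddit4. Of 34 members, 16 kept their sign in every alternative and probe, Eif4b, Eif4e, Eif4ebp1 and Eif2b4 among them. Of 529 values, 54 had the other sign, with no call on either side. Many of the 529 could not turn: the changes of filter, the intensity trend and the replicate block left the members' fold changes as they were. The slide block, slide 1 only and the fit without MAX vector replicate 1 gave the same fold changes, so they are not separate checks. With CANNTG in place of CACGTG, 70% of member promoters held the motif (64.8% of named genes tested, 73.2% of the table), and with only bases before the start 20% held CACGTG (8.35% and 6.18%). Same-numbered replicates did not deviate together (r = -0.0178 across genes), and the numbers are not known to pair samples; with the replicate block 0 genes of either list passed, as did 0 of all genes (3884 had an unadjusted p below 0.05), and the medians stayed at 0.0075 and 0.0028. The calls over all genes, 213, became 799 with normexp, 541 with median scaling, 515 with probes above background on all 4 arrays, 955 with the intensity trend, 8 on slide 1, and 0 with no filter on dim probes (4033 had an unadjusted p below 0.05); leaving out an array gave 0 (either empty vector array) to 144. The number of arrays limits the precision.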

Other observations

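The E-box search was extended to every named gene tested. Of the 481 genes whose promoter window holds CACGTG, 3 passed in limma (0.624%), 2 higher and 1 lower with MAX, and of the 4668 whose window lacks it 64 passed (1.37%), 47 higher and 17 lower. The medians were 0.00 and 0.00, and the median sizes of the log2 fold change were 0.13 and 0.15. Whether the shares differ was not tested.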
